A study of Mus musculus with 4 samples.

Results

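The interferon gamma induced GTPases are proteins that cells make in quantity once interferon gamma has bound its receptor. The 8 genes followed here, Gbp2, Gbp3, Gbp6, Gbp7, Irgm1, Irgm2, Igtp and Iigp1, were taken by name from the deposited expression table, and 7 of its 14226 rows carry the symbol of a member. Igtp heads no row. Its identifier is listed in the row headed Irgm2, so that row is a joint value of Irgm2 and Igtp.

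The libraries came from splenocytes of C57BL/6N mice and were made from total RNA. There were 2 libraries of the genotype vcS5 +/T, a STAT5 transgene, and 2 libraries of wild-type mice, described in the series design as biological replicates. STAT5 is the transcription factor that carries signals of interleukin 2, 7 and 15 to the nucleus, and the series title links an activating mutation of it to peripheral T cell lymphoma. The column names place both vcS5 libraries in line 1, so the transgenic group stands for that line alone. The promoter driving the transgene and the age and sex of the mice are not given in the sources used here. Values are FPKM, fragments scaled to transcript length and library size, a measure by which genes of different length can be set side by side.

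Interferon gamma, made mainly by T cells and natural killer cells, binds a receptor of the chains IFNGR1 and IFNGR2. The kinases JAK1 and JAK2 on these chains start a signal that acts at gamma-activated sequences in promoters. Among the genes it induces is that of the factor IRF1, which binds interferon-stimulated response elements. The guanylate-binding proteins (GBPs) and the immunity-related GTPases (IRGs) are classical targets of this route. In mouse cells they gather on the membranes around intracellular parasites and bacteria. Among the IRGs, Irgm1, Irgm2 and Igtp encode regulators that hold effector GTPases such as the product of Iigp1 in check on the cell's own membranes.

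The promoters of 6 of the 8 members were found in RefSeq (GRCm38.p6), and they are shown because they carry the response elements named above. Capitals mark the gamma-activated sequence TTCNNNGAA and the core GAAANNGAA of the interferon-stimulated response element, each searched on both strands, so that the core also appears as its reverse complement. The first 3 sequences are the 110 bases before the RefSeq start.

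Gbp7 (chr3:142530226-142530335, plus strand): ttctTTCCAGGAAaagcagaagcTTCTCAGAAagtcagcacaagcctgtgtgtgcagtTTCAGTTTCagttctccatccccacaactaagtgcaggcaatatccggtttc
Igtp (chr11:58199446-58199555, plus strand): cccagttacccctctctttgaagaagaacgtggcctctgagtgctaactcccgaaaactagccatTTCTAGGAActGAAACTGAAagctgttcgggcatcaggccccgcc
Irgm2 (chr11:58214867-58214976, plus strand): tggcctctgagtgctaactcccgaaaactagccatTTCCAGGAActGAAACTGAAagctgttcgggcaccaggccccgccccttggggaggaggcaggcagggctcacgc

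For Gbp2, Gbp3 and Irgm1, where GENCODE places an exon of some transcript within that stretch, 30 bases around the elements are shown.

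Gbp2 (chr3:142620595-142620624, plus strand): ctcttttagtTTCACTTTCactgtcttaag
Gbp3 (chr3:142559993-142560022, plus strand): acacagtTTCAGTTTCTATTTCccagatcc
Irgm1 (chr11:48871428-48871457, minus strand): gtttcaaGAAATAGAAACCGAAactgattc

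All 6 genes held GAAANNGAA within the window from 250 bases before to 50 bases after the start, against 8.56% of 32851 promoter windows of that length. Gbp3 has a second, downstream RefSeq start, whose window held neither element. TTCNNNGAA was found in Gbp7, with 2 matches, and in Igtp and Irgm2, against 8.30% of windows. It was not among the letters of the Gbp2, Gbp3 and Irgm1 windows. Both elements together occurred in 1.07% of windows. Among other GBP and IRG windows, those of Gbp5, Tgtp1, Tgtp2 and Gm12250 held both elements, Gbp5 with 2 matches of TTCNNNGAA. The Gbp2b window held only the core, and those of Ifi47, Irgq and Gm5431 held neither. Of the genes with both elements, Gbp7 had a log2 change of 0.80 and the joint Irgm2 and Igtp row one of 0.73. The rows of Tgtp1 (merged with Gm12185), Tgtp2, Gm12250 and the row named Gbp5 had 1.31, 0.75, 0.74 and 0.01. With the core alone, Gbp2, Gbp3 and Irgm1 had 0.76, -0.04 and -0.15. With neither, Irgq, Gm5431 and the row merging Ifi47 and Olfr56 had -0.49, -0.46 and 0.96. A relation between these letters and the changes was not tested. The Igtp and Irgm2 windows are near copies, with 244 of 270 aligned positions identical (90.4%), and in both the gamma-activated sequence lies just before the core of the response element. The same letters TTCNNNGAA are bound by several STAT dimers, STAT5 included. Such matches are descriptions of the letters and not of binding.

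Among the members, Gbp7 rose in vcS5 spleens, and Gbp2 and the joint Irgm2 and Igtp row were higher by nearly as much without passing the test. Gbp3, Gbp6, Irgm1 and Iigp1 had changes between -0.15 and 0.17 on the log2 scale. Thus 1 of 7 rows passed as higher and 0 as lower at an adjusted p under 0.05 by limma (Benjamini-Hochberg over all rows), against 4.59% of all rows higher and 4.13% lower, and 3 of the 7, all higher, had an unadjusted p under 0.05, against 12.1% of all rows higher and 13.1% lower at that level. The authors' deposited table, at a q under 0.05, calls 3 of the 7 higher and 0 lower, against 5.31% of its rows higher and 6.14% lower. The median change of the 7 rows was 0.17, against 0.00 over all rows. In 4 rows both vcS5 libraries were above both wild-type libraries and in 1 row below, against 26.9% and 27.5% of all rows. The single call is too few to set the members apart from that background. Log2 changes are differences in log2(FPKM + 1), vcS5 minus wild type, and folds are ratios of mean FPKM.

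**Figure D1:**
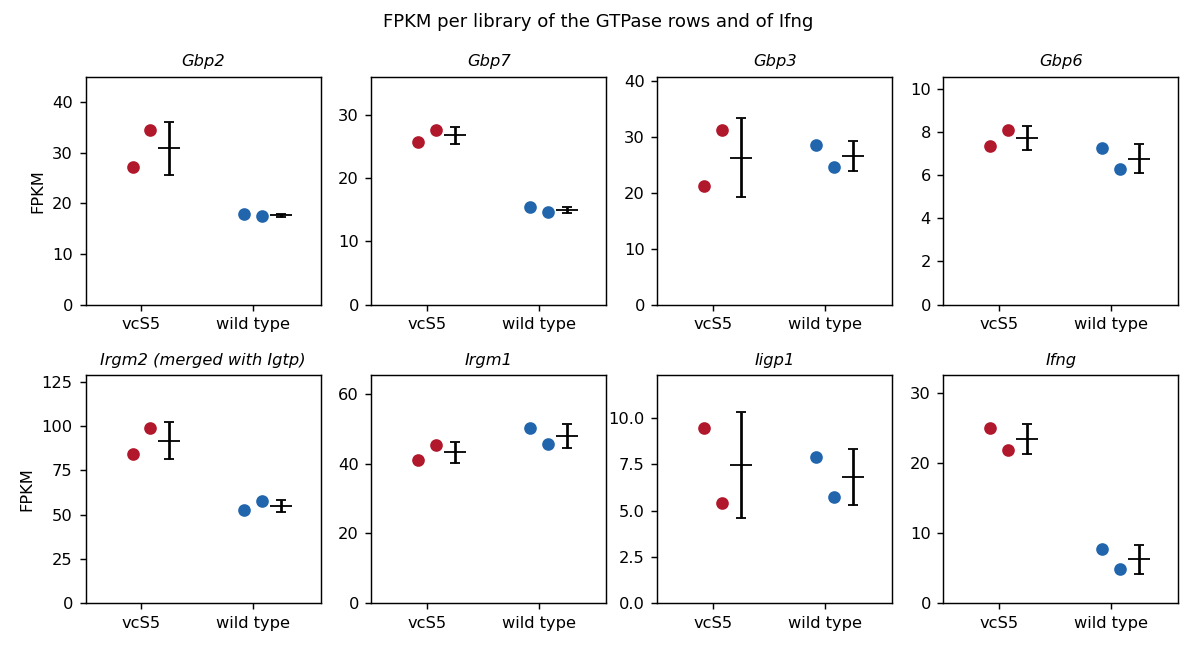
FPKM (vertical axes, each from 0) of the 7 member rows and of Ifng in each library, vcS5 left and wild type right; points are libraries, bars the mean ± SD (n = 2). Gbp2, Gbp7, the Irgm2 and Igtp row and Ifng have both vcS5 points well above both wild-type points, and the points of Gbp3 and Iigp1 overlap between groups.

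Ifng, the gene of the ligand (mm10 chr10:118441033-118445892, plus strand), had 25.0 and 21.9 FPKM in vcS5 libraries, against 7.72 and 4.80 FPKM in wild-type libraries. It was 3.74-fold higher in vcS5, with a log2 change of 1.78 (SE 0.232, 95% interval 1.19 to 2.37, adjusted p = 0.0169 by limma). No vcS5 library came near the wild-type range. The change stayed between 1.48 and 2.07 with each library left out in turn, with an adjusted p by limma of 0.0426 without wild-type replicate 1 and of 0.063 to 0.125 without any of the other libraries. Set beside this ligand, the member rows spanned changes from -0.15 to 0.80, all below that of Ifng.

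Gbp7 encodes a GBP that in mouse macrophages helps to limit intracellular mycobacteria. Its row (chr3:142530338-142550083, plus strand) had 25.8 and 27.7 FPKM in vcS5 libraries, against 15.4 and 14.6 FPKM in wild-type libraries. The groups were apart and the libraries within each lay close together. Gbp7 was 1.79-fold higher in vcS5, at 26.8 ± 1.38 FPKM in vcS5 and 15.0 ± 0.518 FPKM in wild type (SD, n = 2 each), with a log2 change of 0.80 (SE 0.133, 95% interval 0.46 to 1.13, adjusted p = 0.0301 by limma). Whichever library was left out, the adjusted p by limma was 0.125 to 0.168 while the change stayed between 0.74 and 0.85. The authors' deposited table gives Gbp7 a log2 change of 0.84 and a q of 9.95e-04.

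Gbp2 encodes a GBP that is anchored to membranes by a lipid and coats the vacuole of Toxoplasma in mouse cells. Gbp2 (chr3:142620602-142638008, plus strand) had 27.2 and 34.6 FPKM in vcS5 libraries, against 17.9 and 17.5 FPKM in wild-type libraries. Both vcS5 libraries were above wild type, though further from each other than the wild-type libraries were. The ratio was 1.75 and the log2 change 0.76 (SE 0.165, 95% interval 0.34 to 1.18), which did not pass (adjusted p = 0.0556 by limma). The authors' deposited table gives it a q of 0.00185. With median-of-ratios or quantile scaling Gbp2 passed, at an adjusted p of 0.0478 and 0.0469 by limma. It did not pass with the replicate number as a block (0.0676) or without the variance trend (0.0694). Its change was 0.59 to 0.93 with each library left out in turn.

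Gbp3, which lies between Gbp7 and Gbp2 on chromosome 3 (chr3:142560052-142573209, plus strand), had 21.2 and 31.3 FPKM in vcS5 libraries, against 28.6 and 24.7 FPKM in wild-type libraries. The vcS5 libraries lay on either side of both wild-type libraries. The log2 change was -0.04 (SE 0.218, adjusted p = 0.936 by limma), and its 95% interval from -0.60 to 0.52 does not reach the change measured for Gbp7, though the difference between the rows was not tested. The row at the start of the same cluster (chr3:142496934-142522344) is named Gbp5 in the table, but its identifier is that of Gbp2b in GENCODE vM21. Its start and end are those of Gbp5 in RefSeq, while Gbp2b lies further along (chr3:142594816-142619179), so by position the row is Gbp5. It had 17.4 and 18.5 FPKM in vcS5 libraries, against 18.2 and 17.4 FPKM in wild-type libraries (log2 change 0.01, adjusted p = 0.971 by limma). Along this cluster the changes ran 0.01, 0.80, -0.04 and 0.76 in the order of the rows.

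Gbp6 belongs to the GBP cluster of chromosome 5. The row headed Gbp6 carries an identifier that GENCODE vM21 calls Gm43302, a gene spanning both Gbp10 and Gbp6, which are close relatives, and it shares its locus (chr5:105014153-105346472) with the other GBP rows there. It had 7.33 and 8.10 FPKM in vcS5 libraries, against 7.25 and 6.27 FPKM in wild-type libraries. The groups were apart, but the lower vcS5 library exceeded the higher wild-type library by little. The log2 change was 0.17 (SE 0.157, 95% interval -0.23 to 0.57, adjusted p = 0.579 by limma). The neighbouring row, which merges Gbp9, Gbp8, Gbp4 and Gbp11, had 135 and 146 FPKM in vcS5 libraries, against 98.8 and 104 FPKM in wild-type libraries, the highest level of any GBP row. Its log2 change of 0.47 (SE 0.139) did not pass (adjusted p = 0.114 by limma).

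Irgm2 and Igtp encode regulatory IRGs of internal membranes. Their joint row (chr11:58199556-58222779, plus strand) had 84.5 and 99.0 FPKM in vcS5 libraries, against 52.4 and 57.5 FPKM in wild-type libraries, the highest level among the member rows. The groups were well apart. The ratio was 1.67 and the log2 change 0.73 (SE 0.152, 95% interval 0.34 to 1.11), which did not pass (adjusted p = 0.0511 by limma). With median-of-ratios or quantile scaling it passed, at an adjusted p of 0.0377 and 0.0323 by limma. It also passed with the replicate number as a block (adjusted p = 0.0401 by limma), but not without the variance trend (0.0645). With each library left out in turn, its change was 0.61 to 0.84. The authors' deposited table gives a log2 change of 0.74 and a q of 9.95e-04. GENCODE draws an Irgm2 transcript from within the first exon of Igtp, and the share of each gene in the joint value cannot be told apart.

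Irgm1, the regulator whose loss in mice lets other IRGs damage lysosomes, lies on the same chromosome but apart from Irgm2 and Igtp (chr11:48861968-48871856, minus strand). It had 41.1 and 45.3 FPKM in vcS5 libraries, against 50.2 and 45.5 FPKM in wild-type libraries. Both vcS5 libraries were the lower ones, vcS5 replicate 2 by less than 1 FPKM. The log2 change was -0.15 (SE 0.140, adjusted p = 0.594 by limma), and its 95% interval from -0.50 to 0.21 lies below the interval of the joint Irgm2 and Igtp row, 0.34 to 1.11. This difference between rows was not tested.

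Iigp1 encodes an effector IRG that coats and disrupts the Toxoplasma vacuole. Iigp1 (chr18:60376029-60392627, plus strand) was low, at 9.47 and 5.42 FPKM in vcS5 libraries, against 7.90 and 5.76 FPKM in wild-type libraries. The vcS5 libraries were the highest and the lowest of the 4. The log2 change was 0.08 (SE 0.289, adjusted p = 0.903 by limma), with a 95% interval from -0.66 to 0.81 that includes the change of Gbp7.

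**Figure D2:**
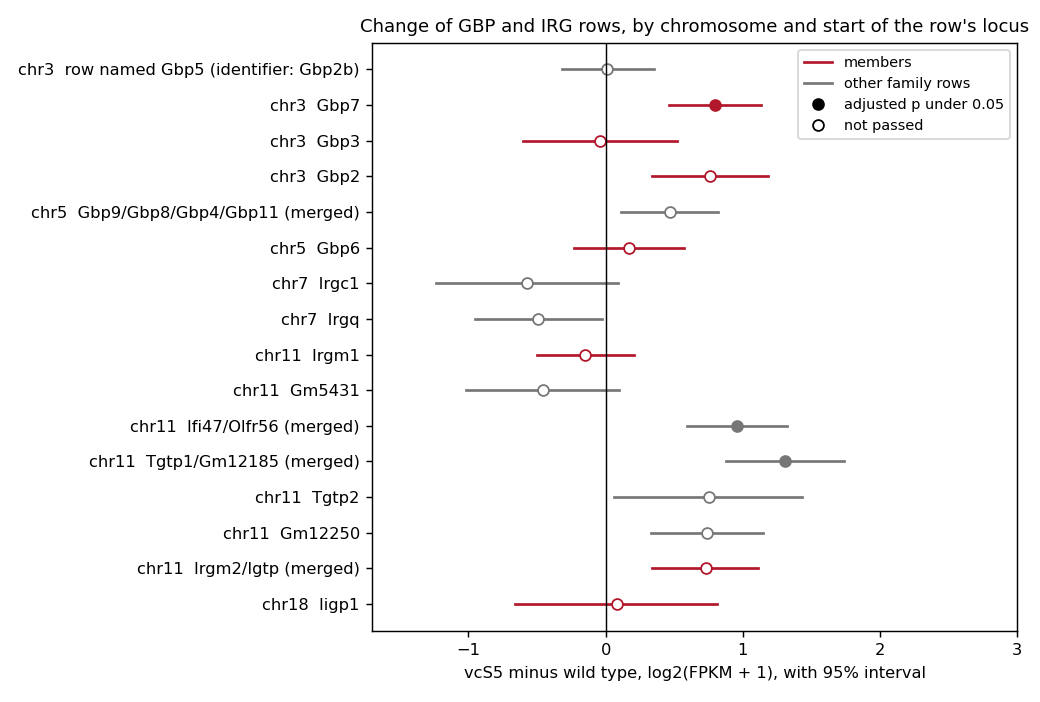
Log2 change (horizontal axis, vcS5 minus wild type on the log2(FPKM + 1) scale) of all measured GBP and IRG rows, listed by chromosome and start of locus; points are changes, lines 95% intervals, red the members, filled points an adjusted p under 0.05 by limma. Gbp7, Ifi47 and Tgtp1 rows are filled, at 0.80, 0.96 and 1.31, and Irgc1, Irgq, Gm5431, Irgm1 and Gbp3 lie left of 0.

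Outside the members, the IRG rows included 2 that rose, while the others did not pass. Ifi47, an IRG gene whose row is merged with Olfr56, had 138 and 155 FPKM in vcS5 libraries, against 73.3 and 76.6 FPKM in wild-type libraries (1.96-fold, log2 change 0.96, adjusted p = 0.0236 by limma). Tgtp1, a further IRG gene, has a row merged with Gm12185. That row had 18.8 and 17.4 FPKM in vcS5 libraries, against 5.87 and 7.61 FPKM in wild-type libraries (2.68-fold, log2 change 1.31, adjusted p = 0.0168 by limma). Both rows lost their calls whichever library was left out, and the authors' deposited table gives q of 0.147 and 0.831 for them. These rows and that of Tgtp2, a close copy of Tgtp1, share 1 locus on chromosome 11, and the kit does not mark strand, so their separate values are uncertain. Tgtp2 had 25.3 and 33.7 FPKM in vcS5 libraries, against 13.4 and 21.5 FPKM in wild-type libraries (adjusted p = 0.170 by limma). Gm12250, just before Igtp, had 17.4 and 21.7 FPKM in vcS5 libraries, against 11.4 and 11.1 FPKM in wild-type libraries (log2 change 0.74, adjusted p = 0.0561 by limma). Of the 7 IRG rows outside the members, 2 were higher and 0 lower, with 4 higher and 1 lower at an unadjusted p under 0.05 (all rows 12.1% and 13.1%), and a median of 0.74. The authors' deposited table calls 1 of them higher, Gm12250 (q of 0.0169), and 1 lower, Irgq (q of 0.0492).

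The more distant relatives Irgc1 and Irgq had log2 changes of -0.57 and -0.49 and did not pass (adjusted p = 0.255 and 0.177 by limma). Among 4 other interferon induced GTPase rows (Gvin1, Gm4070, Mx1 and Mx2), 0 passed by limma, 2 had an unadjusted p under 0.05, and the authors' deposited table calls 1 higher and 1 lower. Gvin1, a very large GTPase gene, had 4.18 and 4.38 FPKM in vcS5 libraries, against 3.04 and 2.63 FPKM in wild-type libraries. Mx2, an antiviral GTPase gene induced mainly by type I interferon, had 0.745 and 0.956 FPKM in vcS5 libraries, against 2.27 and 2.78 FPKM in wild-type libraries (adjusted p = 0.0607 by limma).

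**Figure D3:**
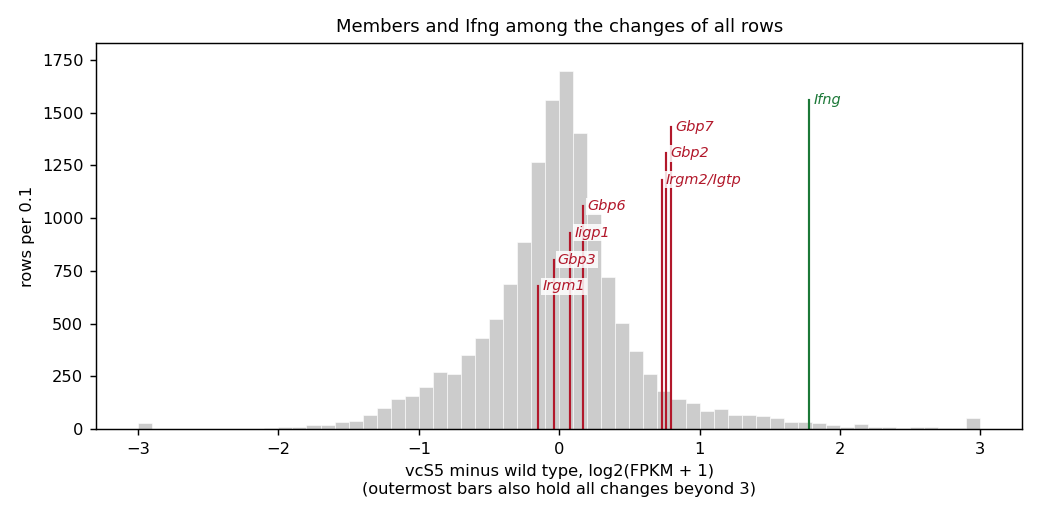
Log2 change of all 14226 rows (horizontal axis, vcS5 minus wild type; grey bars, rows per bin of 0.1) with red lines at the member rows and a green line at Ifng; line heights carry no value. Gbp7, Gbp2 and the Irgm2 and Igtp row stand at 0.80, 0.76 and 0.73, Irgm1, Gbp3, Iigp1 and Gbp6 near 0, and Ifng at 1.78.

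In the distribution of all changes, 92.3% to 93.1% of rows lay at or below the Irgm2 and Igtp row, Gbp2 and Gbp7, against 34.5% for Irgm1 and 98.6% for Ifng. By distance between centred log2 values over the 4 libraries, the rows nearest to the mean profile of the members were Ttc37, Zbtb8os, Trub1, Prkcz and Ppp6c, with distances of 0.0257 to 0.0442 among 9004 rows compared. Their own changes, 0.30 to 0.35, did not pass, and the likeness rests on 4 libraries.

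Between ligand and GTPases, the receptor chains moved in opposite directions. Of 14 rows of interferon gamma and its receptor pathway, 4 rose, Ifng itself among them, and 1 fell. Of all rows, 4.59% rose and 4.13% fell. Without Ifng, 3 of 13 rose. Ifngr1, the chain that binds the ligand, had 135 and 172 FPKM in vcS5 libraries, against 78.0 and 80.7 FPKM in wild-type libraries (log2 change 0.94, adjusted p = 0.0363 by limma). Ifngr2, the chain that brings JAK2, had 19.4 and 13.8 FPKM in vcS5 libraries, against 36.7 and 41.6 FPKM in wild-type libraries (log2 change -1.20, adjusted p = 0.0292 by limma). Neither pair of groups overlapped.

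Jak1, the kinase on IFNGR1 that also serves interleukin 2 family receptors, had a log2 change of 0.74 (adjusted p = 0.0470 by limma), and with other settings its adjusted p by limma was 0.0327 to 0.0513. Jak2 had 30.5 and 31.5 FPKM in vcS5 libraries, against 34.0 and 33.2 FPKM in wild-type libraries, and did not pass. Irf1 had 130 and 159 FPKM in vcS5 libraries, against 108 and 140 FPKM in wild-type libraries (log2 change 0.23, adjusted p = 0.548 by limma). The groups overlapped for Irf1, the transcription factor. Socs1, the feedback inhibitor of JAK kinases that interferon gamma and STAT5 both induce, had 38.7 and 32.2 FPKM in vcS5 libraries, against 12.8 and 9.12 FPKM in wild-type libraries, a 3.23-fold rise (log2 change 1.62, SE 0.206, adjusted p = 0.0165 by limma). The calls of Ifngr1, Ifngr2, Jak1 and Socs1 were lost whichever library was left out, with adjusted p by limma from 0.0589 to 0.220.

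**Figure D4:**
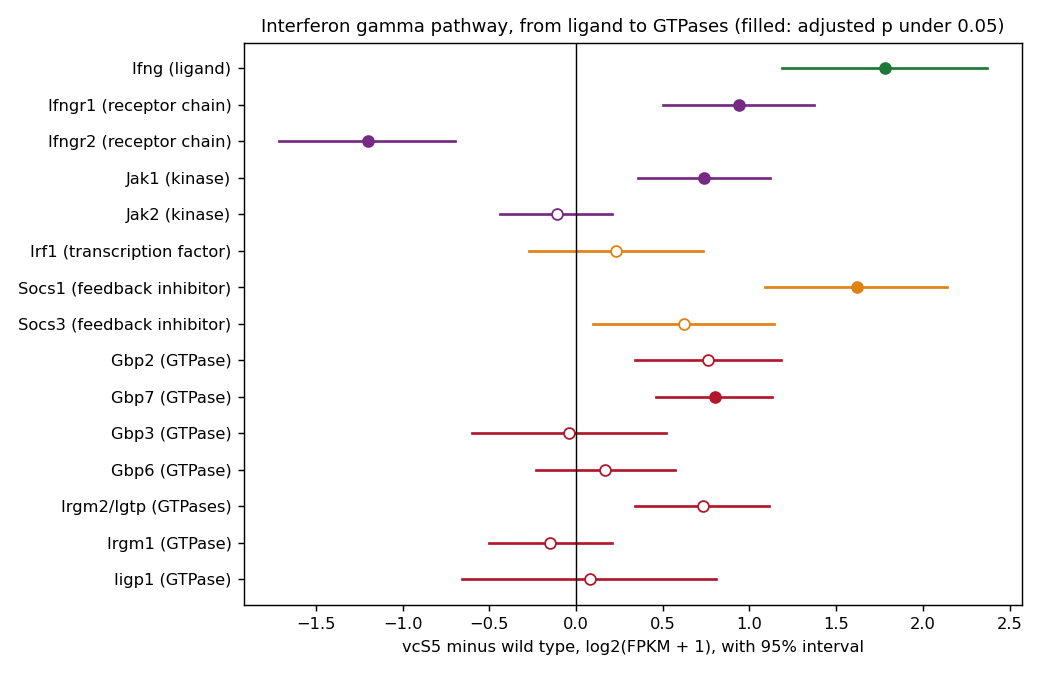
Log2 change (horizontal axis, vcS5 minus wild type) of genes from the ligand through receptor, kinases, factors and inhibitors to the GTPases; points are changes, lines 95% intervals, filled points an adjusted p under 0.05 by limma. Ifng, Ifngr1, Jak1, Socs1 and Gbp7 are filled on the right, Ifngr2 on the left, and Jak2, at -0.11, is open near the line of no change.

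Other targets of interferon gamma moved both ways. Of 34 rows of such genes, 1 rose and 4 fell by limma, against 4.59% and 4.13% of all rows, with a median of 0.09. The only one that rose is Socs1, a row also counted in the pathway list above. At an unadjusted p under 0.05 by limma, 3 were higher and 9 lower (all rows 12.1% and 13.1%). The authors' deposited table calls 1 higher and 6 lower (all rows 5.31% and 6.14%). Cd40 and Ciita, genes of antigen-presenting cells, had log2 changes of -1.15 and -1.14, and Ifi30 and Casp1 of -0.87 and -0.82 (Casp1 was named after its value was seen). These 4 calls were lost whichever library was left out (adjusted p = 0.0721 to 0.193 by limma), and that of Casp1 also without the variance trend (0.053) and with quantile scaling. Type I interferon response genes had 0 of 25 rows higher and 5 lower by limma, against 4.59% and 4.13% of all rows. At an unadjusted p under 0.05, 1 was higher and 12 lower (all rows 12.1% and 13.1%). The authors' deposited table calls 1 higher and 10 lower, and the median change of these genes was -0.59. Their leading members, the antiviral genes Oasl1, Oas2, Ifi27l2a and Ifi44, had log2 changes of -1.95, -1.56, -1.18 and -1.05. Their calls were lost whichever library was left out (adjusted p = 0.0593 to 0.182 by limma), except that of Oas2 without wild-type replicate 2 (0.0469). Ifi44, a low row, also lost its call with quantile scaling (0.0557), and its change was -1.65 with a pseudocount of 0.1 and -0.42 with a pseudocount of 5. In each of these genes, both vcS5 libraries were below both wild-type libraries.

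Of 12 rows of genes that let lymphocytes make interferon gamma, 8 rose and 1 fell, against 4.59% and 4.13% of all rows. A pair of these rows is named Stat4, with adjusted p of 0.0206 and 0.0603 by limma. The list holds Ifng itself, and without it 7 of 11 rose and 1 fell, with a median of 1.06. Il18r1 and Il18rap, the chains of the interleukin 18 receptor, had log2 changes of 2.98 and 1.98, and the factor Eomes 2.19. Il18r1 passed whichever library was left out, whereas Il18rap and Eomes did not pass without vcS5 replicate 1 or without vcS5 replicate 2 (adjusted p = 0.0701 to 0.116 by limma). Il12a, which encodes a chain of interleukin 12 and was named after its value was seen, had 2.15 and 3.43 FPKM in vcS5 libraries, against 6.99 and 9.12 FPKM in wild-type libraries (log2 change -1.27, adjusted p = 0.0397 by limma). That call was lost whichever library was left out (0.113 to 0.168), and the change was -0.75 with a pseudocount of 5. Of 15 rows of autophagy and effector genes that load GBPs and IRGs or act with them, 0 passed by limma (median 0.01). Among them 1 was higher and 4 lower at an unadjusted p under 0.05 (all rows 12.1% and 13.1%). The authors' deposited table calls 1 higher and 1 lower.

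Marker genes of several cell types differed between groups in these whole-spleen values, in which fewer cells of a type cannot be told apart from less RNA per cell. For the marker counts by limma, the shares over all rows were 4.59% higher and 4.13% lower. Summed FPKM of 6 CD8 T cell markers was 3530 and 3933 in vcS5 libraries, against 503 and 440 in wild-type libraries. Ccl5 alone gave 2132 and 2382 FPKM of the vcS5 sums, and 287 and 193 FPKM of the wild-type sums. Of the 6, 5 were higher, Ccl5 among them and Cd8a at a log2 change of 2.86. Cd8a did not pass without vcS5 replicate 2 (adjusted p = 0.057 by limma). Of 8 pan T cell marker rows, 4 were higher by limma, and all 8 at an unadjusted p under 0.05 (all rows 12.1%). The authors' deposited table also calls all 8 pan T cell rows higher (5.31% of its rows). Of 5 CD4 T cell rows 1 was higher and 2 lower by limma, and of 7 natural killer cell rows 3 were higher and 1 lower. The higher ones are Klre1 and a pair of rows both named Klra8. The lower one is Ncr1, the gene of the receptor NKp46, with a log2 change of -3.17, the largest of the list in size. All 9 B cell marker rows, a pair of them both named Fcer2a, were lower by limma, Cr2 most. The authors' deposited table calls 7 of these rows lower. Their sums were 1271 and 1232 in vcS5 libraries, against 3060 and 3718 in wild-type libraries. Leaving out wild-type replicate 2 gave Cr2 an adjusted p of 0.0482 by limma, and leaving out any other library gave 0.0564 to 0.0948. Among 13 macrophage and monocyte rows 1 was higher and 1 lower, with sums of 756 and 887 in vcS5 libraries, against 833 and 596 in wild-type libraries. The higher row is named Ly6c2, a gene that memory CD8 T cells also express, and is merged with Ly6i. That row carries most of the vcS5 sums. Without it the sums were 273 and 362 in vcS5 libraries, against 705 and 517 in wild-type libraries, and the 12 other rows had changes of -1.34 to -0.09. Of 8 dendritic cell rows 1 was lower. Of 10 neutrophil rows 1 was lower by limma, 8 at an unadjusted p under 0.05 and 10 in the authors' deposited table (median -1.74). In all 10 both vcS5 libraries were below both wild-type libraries, with sums of 1045 and 1008 in vcS5 libraries, against 6442 and 1942 in wild-type libraries, wild-type replicate 1 being the high one. Of 8 erythroid rows 0 passed by limma, at an unadjusted p or in the authors' deposited table. No marker row was at 0 in any library. The part of these shifts in the GTPase values was not tested.

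The table does not separate transgene reads from those of the mouse's own genes. Stat5a had 105 and 123 FPKM in vcS5 libraries, against 13.9 and 17.0 FPKM in wild-type libraries (log2 change 2.81, adjusted p = 0.00241 by limma, and 0.0532 without vcS5 replicate 2). Stat5b had a log2 change of -0.01. Median FPKM was 12.2 and 12.6 in vcS5 libraries and 12.2 and 12.5 in wild-type libraries. Of all rows, 1241 passed, and leaving out 1 library lowered this to 71 to 245.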

How the data were processed

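Splenocyte RNA was made into 50 bp single-end libraries with a TruSeq kit, per the labels' protocols. The authors deposited FPKM per library and per group, a log2 fold change, a p-value and a q-value, per the file headers. The submitters' processing notes name mm10, Cuffdiff 2.1.1, Cufflinks, TopHat2 2.0.9 and Bowtie2 2.1.0, without settings.

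From these values, log2(FPKM + 1) was fitted with limma 3.58.1 in R 4.3.3 (variance trend, no covariates, all 14226 rows, two-sided, Benjamini-Hochberg, threshold 0.05; 3.17 prior and 2 residual degrees of freedom). The filter at a mean FPKM of 1 removed 0 rows. The scripts were tested on simulated data. FPKM does not give read numbers. The ratio of each library to wild-type replicate 2 was taken over rows above 0 in both, and rounded. Its commonest value was 0.94 and 1.019 in vcS5 and 0.847 in wild-type replicate 1. Each was shared by 71 to 203 rows, so it only hints at relative depth, and absolute depth is unknown. P-values rest on the spread between 2 libraries a group, which limma pools with the spread of other rows of like level.

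Members and lists were chosen with earlier results of these data known. Lists were matched by symbol, otherwise by identifier in GENCODE vM21 (GRCm38). Some rows stand in several lists, those of Socs1 and Eomes among them. Named genes are the members, Ifng, Stat5a, Stat5b, core pathway genes and up to 4 passing genes of largest change per list. Outside that rule, the other GBP, IRG and interferon induced GTPase rows are also named, whether they passed or not. The table's start positions were raised by 1, and 424 rows merge several genes. Promoters are RefSeq's. A gene of the pathway list is counted but not reported here.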

Additional observations from a re-analysis of the deposited data

How the results depend on the processing

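The number of member rows past the threshold was 1 as reported and 1 with a pseudocount of 0.1 or 5, without a filter, with a mean FPKM of at least 5 and without the variance trend. It was 3 with quantile normalization, 3 with median-of-ratios scaling, 3 by the authors' q-value, 2 with the replicate number as a block and 0 with each library left out in turn. Over all rows the count was 1241 as reported, 932 to 1630 under the other settings, 1028 with the replicate block, and 71 to 245 with a library left out. The change of Ifng ran from 1.48 to 2.07 with a library left out. With 2 numbers a group, the block is not known to pair mice (the deviations of same-numbered libraries correlated at 0.176 across rows). With it the Irgm2 and Igtp row passed beside Gbp7 (adjusted p = 0.0401 by limma), and Ifngr2, Cd40 and Ifi44 did not (0.0589, 0.0546 and 0.0827). Signs turned with a library left out for Gbp3 (-0.31 to 0.23), Iigp1 (-0.27 to 0.43), Stat5b (-0.14 to 0.12), the Gbp5 row (-0.03 to 0.05, and -0.01 with quantile normalization) and Mx1 (-0.06 to 0.30), none of which passed in any setting. The cause was not tested, beyond fewer libraries in the fit. A lone library is assumed to vary like the other group. The changes of Gbp7, Gbp2 and the Irgm2 and Igtp row kept their sign in every setting, from 0.59 to 0.93.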
